A study of Mus musculus with 13 samples.

Results

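The genes described here carry out MHC class I antigen presentation: the heavy chains H2-K1, H2-D1, H2-Q4, H2-Q10 and H2-T23, the light chain B2m, the peptide transporter Tap1 and Tap2, tapasin (Tapbp) and the transactivator Nlrc5. They were found by their symbol in the deposited liver table, and 10 of the 10 genes were listed among its 11779 genes. Liver RNA came from Balb/c mice on day 5 after injection of GalNAc-conjugated antisense oligonucleotides (ASOs), which are short modified strands that carry a sugar taken up by hepatocytes. The Liver Luc ASO group (3 mice) received an ASO against firefly luciferase, a gene that mice lack. The Liver LL35 ASO group (3 mice) received a mix of ASOs against the long non-coding RNA LL35. The text of the study gives 5 ASOs for mice, whereas its supplementary list names fewer. The dose given in the labels is 150 mg/kg for each ASO, whereas the methods of the study give 150 mg/kg as one of several total doses. The labels give neither the age nor the sex of the mice, and every mouse received a GalNAc-conjugated ASO, so the table holds no liver without one. The LL35 gene, 9030622O22Rik, was not analysed here, so the knockdown was not checked.

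The only values used were the authors' means, 1 normalized count for each gene averaged over the livers of both groups. No single liver can be read from them, so every level below is a description of these livers together, with no spread between mice, no test and no difference between Luc ASO and LL35 ASO. Over all genes, the mean normalized count ran from 15.6 to that of albumin, with a median of 235. Levels are compared between genes per kilobase of annotated exon unless another scale is named, and on that scale the median of the 11754 genes with a known length was 51.5. In whole liver, fewer cells of a type and less RNA per cell cannot be told apart.

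MHC class I molecules show peptides from inside the cell to CD8+ T cells and to receptors of natural killer cells. Cytosolic proteins are cut by the proteasome, TAP carries the peptides into the endoplasmic reticulum, and tapasin holds the empty heavy chain with its light chain beside TAP until a peptide fits. Hepatocytes are known to carry less class I on their surface than most blood cells, and the liver secretes a soluble class I molecule encoded by H2-Q10.

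Most of these genes stood high among liver transcripts. The median of the 10 genes was 314 normalized counts per kilobase, and 9 of 10 lay above the median gene of the table, with Tap1 below it. Nlrc5 joined Tap1 below the median gene by coding length and among genes averaging 50 normalized counts or more. Their mean normalized counts summed to 32924, which was 0.291% of the total of all genes. They spread over a wide range among themselves, since the level of B2m per kilobase was 267 times that of Tap1. The order from the highest was B2m, H2-D1, H2-K1, H2-Q10, H2-Q4, Tapbp, H2-T23, Tap2, Nlrc5 and Tap1. Neighbours in that order were less than 1.5-fold apart for H2-D1 and H2-K1, for H2-Q4 and Tapbp, for H2-T23 and Tap2, and for Nlrc5 and Tap1. Whether such neighbours differ beyond the spread between mice was not tested.

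**Figure D1:**
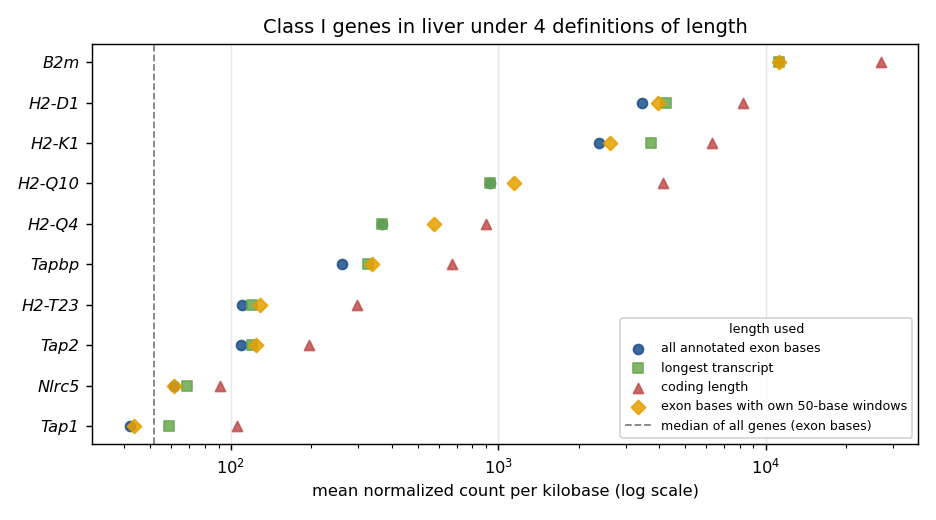
Mean normalized count per kilobase (log scale) of the 10 class I genes in liver, as the authors' mean over both groups, with a marker for each of 4 lengths and a dashed line at the median of all genes (51.5 per kilobase of exon). B2m, at 11199.8 per kilobase of exon, lies far to the right, and Tap1, at 41.9, lies left of the line by exon length. The line applies only to the exon-length markers. By coding length Nlrc5 and Tap1 fall right of it, although only 33.2% and 36.8% of genes lay below them on that scale.

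B2m encodes beta-2 microglobulin, the light chain that every class I heavy chain of this group needs to fold. Its mean normalized count was 9632 (ENSMUSG00000060802, chromosome 2). Per kilobase of exon it reached 11199.8, which was 218 times the median gene and placed it at rank 42 of 11754. B2m therefore lay among the abundant transcripts of the liver, although albumin, at 519843 per kilobase, stood far above it. The level of B2m per kilobase was 1.49 times the sum of the 12 listed class I heavy chains. That ratio was 1.32 per kilobase of coding sequence, and 0.44 for mean normalized counts, which are not divided by length.

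H2-D1 and H2-K1 are classical heavy chains, which present peptides on nearly all nucleated cells. H2-D1 (ENSMUSG00000073411, chromosome 17) had a mean normalized count of 8903, or 3452 per kilobase of exon, and 99.0% of genes lay below it. For H2-K1 (ENSMUSG00000061232, chromosome 17) the mean normalized count was 6970.4 and the level per kilobase was 2372, above 98.4% of genes. H2-D1 was thus 1.46 times as high as H2-K1 per kilobase of exon, and 1.30 times per kilobase of coding sequence. Together they made up 77.6% of the summed level per kilobase of the heavy chains, with 46.0% from H2-D1 and 31.6% from H2-K1.

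H2-Q10 is a non-classical heavy chain gene known for its expression in liver, and its protein lacks the membrane anchor and circulates in blood. Its mean normalized count was 4039.6 (ENSMUSG00000067235, chromosome 17). Per kilobase of exon H2-Q10 reached 929, above 96.1% of genes, and H2-K1 stood 2.55 times above it. The gap was smaller per kilobase of coding sequence, at 1.52 times, since H2-Q10 has 4348 annotated exon bases for 975 coding bases. Its share of the heavy chains was 12.4% by exon length and 20.2% by coding length.

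The 2 other heavy chains were lower. H2-Q4, which encodes the non-classical molecule Qb-1, had a mean normalized count of 954 (ENSMUSG00000035929, chromosome 17) and 367.5 per kilobase of exon. H2-T23 encodes Qa-1, which shows leader peptides of other class I molecules to inhibitory receptors of natural killer cells. Its mean normalized count was 318 (ENSMUSG00000067212, chromosome 17), and its level was 110.1 per kilobase, above 71.4% of genes. Per kilobase of exon, H2-Q10 was 2.53 times as high as H2-Q4, and it was 4.61 times as high per kilobase of coding sequence. Per kilobase of exon, H2-Q4 was 3.34 times as high as H2-T23 and H2-D1 was 31.3 times as high as H2-T23. The 5 heavy chains described here held 96.4% of the summed level of the listed heavy chain genes chosen here. The other 7 of these genes held 3.61% together. This sum leaves out H2-T-ps, H2-K2 and H2-Bl, which stood at 219, 71.4 and 39.3 per kilobase of exon.

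**Figure D2:**
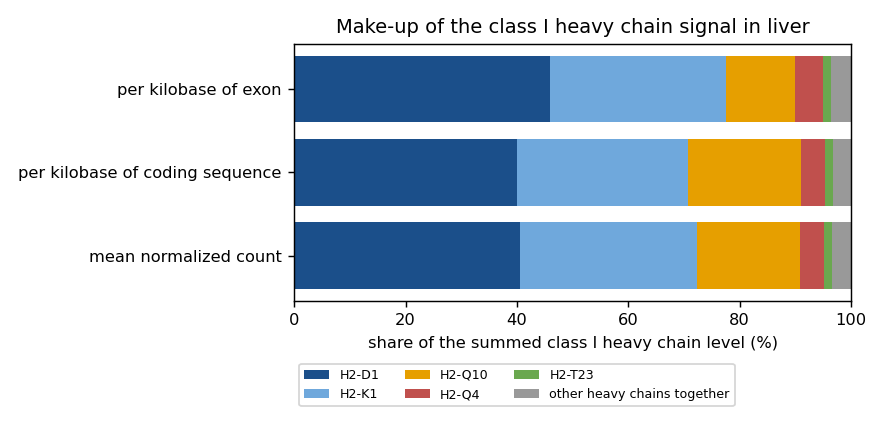
Share (%) of each gene in the summed level of the 12 listed class I heavy chains, drawn as stacked bars for levels per kilobase of exon, per kilobase of coding sequence and for mean normalized counts. H2-D1 and H2-K1 together take 77.6%, 70.7% and 72.4% of the 3 bars, and the share of H2-Q10 grows from 12.4% to 20.2% when the coding length replaces the exon length.

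Tap1 and Tap2 encode the subunits of the TAP transporter, which works only as a pair. Tap1 (ENSMUSG00000037321, chromosome 17) had a mean normalized count of 229.6, or 41.9 per kilobase of exon, and 43.8% of genes lay below it. Tap2 (ENSMUSG00000024339, chromosome 17) had a mean normalized count of 414, or 109.5 per kilobase. The level of Tap2 was 2.61 times that of Tap1 per kilobase of exon, 1.86 times per kilobase of coding sequence and 1.80 times by mean normalized count, so Tap2 was the higher subunit on each of these scales. Tapbp encodes tapasin, which bridges TAP and the heavy chain and helps to select tightly bound peptides. Its mean normalized count was 942 (ENSMUSG00000024308, chromosome 17) and its level was 259.6 per kilobase, above 87.2% of genes. Tapasin stood 6.19 times above Tap1 and 2.37 times above Tap2 per kilobase of exon.

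Nlrc5 encodes the class I transactivator, a protein with no DNA-binding domain of its own that is recruited to class I promoters by the RFX proteins and their partners. It had a mean normalized count of 521 (ENSMUSG00000074151, chromosome 8). Spread over 8493 exon bases this came to 61.4 per kilobase, close to the median gene at 1.19 times its level. It lay above 54.8% of genes by exon length but above only 33.2% by coding length, so its side of the median gene changed with the length. Nlrc5 and Tap1 were the only genes of the group whose places in the order changed with the coding length, with 90.8 per kilobase for Nlrc5 and 105.7 for Tap1. By longest transcript and by exon positions with their own windows the order of the 10 genes was the same as by exon length.

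The heavy chain genes arose by duplication and still resemble each other, which bears on how their reads could be counted. Among the reference coding sequences, H2-K1 and H2-D1 were identical at 91.4% of aligned bases, H2-K1 and H2-Q4 at 90.7%, and H2-K1 and H2-Q10 at 88.1%. H2-T23 stood furthest from the others, with 81.2% to 83.2%. The stretch of 50 coding bases with the fewest differences over the 5 genes is printed first, with capitals where a gene differs from H2-K1. It starts at coding base 673 of H2-K1, and a read from it could come from H2-K1, H2-D1, H2-Q10 or H2-T23 alike.
H2-K1: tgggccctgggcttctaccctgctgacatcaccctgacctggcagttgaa
H2-D1: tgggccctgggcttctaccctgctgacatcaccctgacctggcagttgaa
H2-Q4: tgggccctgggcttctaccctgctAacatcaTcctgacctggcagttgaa
H2-Q10: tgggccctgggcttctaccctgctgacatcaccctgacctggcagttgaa
H2-T23: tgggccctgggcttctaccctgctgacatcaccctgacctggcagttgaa
H2-Q4 differed from H2-K1 at 2 bases of this stretch, and the 3 other genes at 0. The stretch with the most differences, which starts at coding base 481 of H2-K1, separates the genes.
H2-K1: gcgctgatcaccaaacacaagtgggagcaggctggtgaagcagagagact
H2-D1: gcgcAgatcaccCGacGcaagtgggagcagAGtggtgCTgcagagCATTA
H2-Q4: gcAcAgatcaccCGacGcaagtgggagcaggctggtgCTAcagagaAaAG
H2-Q10: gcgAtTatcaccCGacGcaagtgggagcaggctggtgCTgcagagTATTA
H2-T23: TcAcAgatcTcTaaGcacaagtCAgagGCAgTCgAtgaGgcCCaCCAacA
There H2-D1 differed from H2-K1 at 13 bases, H2-Q10 at 12, H2-Q4 at 11 and H2-T23 at 21. These are reference sequences of C57BL/6 mice, not of the Balb/c mice studied.

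**Figure D3:**
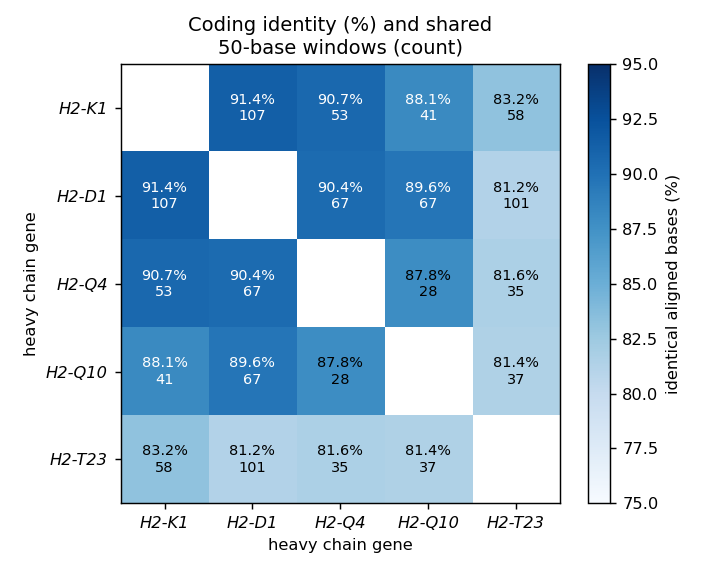
Pairs of the 5 heavy chain genes, with the identity of their aligned reference coding bases (%, colour scale from 75 to 95) and, under it, the number of 50-base coding windows both genes hold. H2-K1 and H2-D1 form the closest pair, with 91.4% identity and 107 shared windows, and H2-T23 is the palest row, at 81.2% to 83.2%.

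In the mode of STAR that the authors used, reads are counted when they align to a single place, so reads from a stretch that another gene also holds may be lost. The share of a gene's 50-base exon windows found in no other annotated gene was 100% for B2m, 99.7% for Nlrc5 and 96.7% for Tap1. It was 90.4% for H2-K1, 88.4% for Tap2, 87.2% for H2-D1, 85.5% for H2-T23 and 80.9% for H2-Q10. Tapbp, with 76.8%, and H2-Q4, with 63.6%, had the lowest shares. Windows were read on both strands, so an antisense gene at the same place also lowers a share, although such reads align to a single place. For Tapbp, 762 windows, or 20.3%, were shared with Gm19412, which overlaps it on the opposite strand. Over all genes the median share was 99.4%, and 1121 genes, or 9.54%, were under 80%, which 2 of the 10 genes were too.

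H2-Q10 shared the most windows with H2-Q7, 631 or 14.0% of its own, whereas H2-Q7 itself was listed at 3.70 normalized counts per kilobase. H2-Q4 shared 398 windows, or 15.3%, with Gm11131, which lies on the opposite strand, and 251 with H2-Q6. For H2-D1 the closest partners were H2-Q1 with 152 windows and H2-K1 with 141, and for H2-K1 the closest was H2-Q10 with 179. H2-T23 shared 183 windows with H2-T-ps. Exons of another gene overlapped 29.02% of the exon bases of Tapbp, 19.1% of those of H2-Q4, 18.5% of those of Tap2 and 3.87% of those of Tap1, on the opposite strand except for a part of those of Tapbp. The kit kept the strand of the RNA, but the strand setting of the counting is not given in the sources used here, so reads of such antisense pairs may not have been told apart. Dividing by the positions with their own windows raised H2-Q4 to 578 per kilobase, H2-Q10 to 1148, H2-D1 to 3958 and H2-K1 to 2625. For H2-Q4 this also takes out the windows shared with the antisense Gm11131, so it may raise the level too far. Balb/c mice carry H2 alleles that differ from those of the reference strain, and the part of this difference in the counts was not tested. Whether reads of H2-L, which was not analysed here, were counted at H2-D1 was not tested either.

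**Figure D4:**
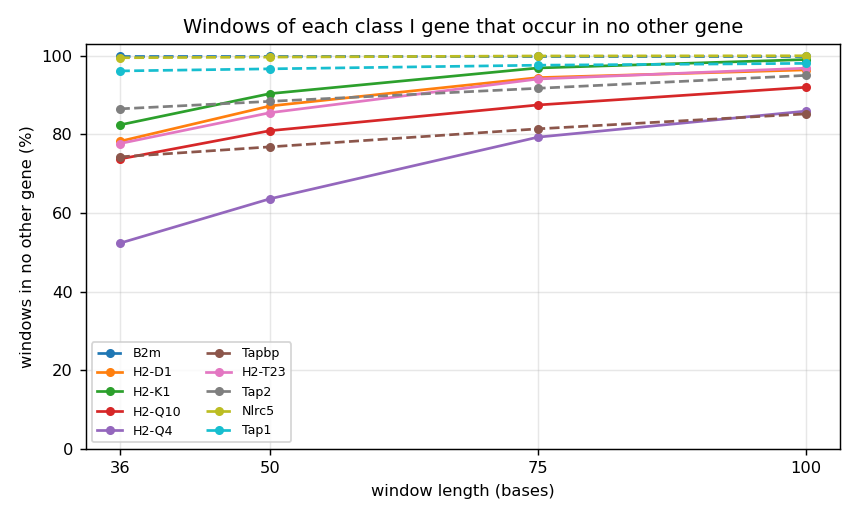
Share (%) of each gene's exon windows found in no other annotated gene, against the window length (36, 50, 75 and 100 bases), with solid lines for the heavy chains and dashed lines for the other genes. H2-Q4 climbs from 52.3% to 85.9% and stays the lowest heavy chain at each length, while B2m stays at 100%.

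Class I promoters are known for a conserved upstream block, with a site for NF-kB (kB), an interferon-stimulated response element (ISRE) and a module bound by RFX, CREB and NF-Y proteins, through which NLRC5 acts. Promoters of 250 bases before to 50 bases after the annotated start were matched in RefSeq (GRCm38.p6) for 8 of the 10 genes, all but Tap2 and Nlrc5. They were searched on both strands for a kB core spelled GGGNNNNCC and an ISRE core spelled TTTCNNTTC. They were also searched for an NF-Y box spelled CCAAT, for a CREB core spelled TGACG and for a TATA box spelled TATAA. All these letters were chosen after the H2-K1 promoter was seen. The stretch from the kB and ISRE matches to the TATA match is shown for the 4 most abundant heavy chains, since it lines up between them, with capitals at the matches. It lies at chr17:34000305-34000467 on the minus strand for H2-K1, at chr17:35262914-35263075 on the plus strand for H2-D1, at chr17:35379434-35379596 on the plus strand for H2-Q4 and at chr17:35469904-35470068 on the plus strand for H2-Q10.
H2-K1: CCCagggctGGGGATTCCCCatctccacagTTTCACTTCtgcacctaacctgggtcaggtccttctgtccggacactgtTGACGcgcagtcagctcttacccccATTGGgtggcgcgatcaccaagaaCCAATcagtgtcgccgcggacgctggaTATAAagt
H2-D1: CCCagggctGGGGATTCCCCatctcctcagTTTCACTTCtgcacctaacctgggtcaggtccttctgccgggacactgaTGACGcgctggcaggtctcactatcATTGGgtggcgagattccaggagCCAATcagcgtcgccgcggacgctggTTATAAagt
H2-Q4: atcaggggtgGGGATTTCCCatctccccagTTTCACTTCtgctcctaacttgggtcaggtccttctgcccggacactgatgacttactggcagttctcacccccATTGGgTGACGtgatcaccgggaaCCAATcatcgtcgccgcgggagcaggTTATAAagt
H2-Q10: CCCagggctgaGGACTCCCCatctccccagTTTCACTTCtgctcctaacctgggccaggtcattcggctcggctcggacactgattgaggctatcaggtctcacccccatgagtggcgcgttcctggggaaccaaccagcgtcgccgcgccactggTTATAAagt
The bases from the ISRE match to the TATA match numbered 125, 124, 125 and 127 in this order. Over aligned bases, with gaps left out, H2-D1 was identical to H2-K1 at 89.5%, H2-Q4 at 84.05% and H2-Q10 at 84.9%. Of the 165 bases of H2-Q10 159 were aligned, against 163 of 163 for H2-Q4, so these 2 shares do not rank the genes. Of the 2 annotated H2-K1 promoters the more upstream was used, and its start lies before the TATA match. H2-Q10 held neither the NF-Y box nor the CREB core, which the 3 other genes held. The CREB core shown for H2-Q4 lies at another place, after the ATTGG match and not before it as in H2-K1 and H2-D1.

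Stretches of B2m (chr2:122147557-122147686, plus strand) and H2-T23 (chr17:36032702-36032831, minus strand) are shown for contrast, as the highest gene of the group and the lowest of its heavy chains.
B2m: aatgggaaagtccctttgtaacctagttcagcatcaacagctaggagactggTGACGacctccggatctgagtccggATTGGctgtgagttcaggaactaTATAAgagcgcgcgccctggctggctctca
H2-T23: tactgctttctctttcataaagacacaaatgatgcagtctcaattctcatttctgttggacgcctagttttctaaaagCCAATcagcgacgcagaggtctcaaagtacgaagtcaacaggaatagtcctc
As spelled here, H2-T23 held only the NF-Y box. B2m held the NF-Y box, the CREB core and the TATA box, but no match to the kB or ISRE core. The B2m promoter does hold gggaaagtccc and gaaactgaaa, which resemble those cores but differ from the letters searched. The second lies mostly before the stretch shown. B2m is therefore not shown here to lack kB or ISRE sites. Of the 8 promoters, 5 held the kB core, 4 the ISRE core, 7 the NF-Y box, 5 the CREB core and 5 the TATA box. Of all 32851 promoters of this length, 43.8% held the kB core, 7.52% the ISRE core, 37.4% the NF-Y box, 20.8% the CREB core and 24.9% the TATA box. Matches of the kB core can overlap each other. The kB core, ISRE core and NF-Y box occurred together in 278 promoters, or 0.846%, among them those of H2-K1, H2-D1 and H2-Q4. The heavy chain promoters are related by descent, so they are not independent cases. A match describes letters and not binding, and no match says only that these letters are not in this window. The windows also depend on the RefSeq start. GENCODE begins H2-D1 (35262730), H2-T23 (36032855) and Tapbp (33915899) further upstream, and windows at those starts were not searched.

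The partners of the 10 genes in the pathway were listed at a wide range of levels. Of 15 other class I heavy chain genes 7 were listed, from H2-Q7 at 3.70 to H2-Q2 at 89.7 normalized counts per kilobase. Their median was 28.1, and the highest of them lay below H2-T23. H2-T10 and H2-T22 had the lowest shares of own 50-base windows among them, at 49.6% and 46.5%. The 8 others (H2-Q6, H2-Q8, H2-Q9, H2-L, H2-T3, H2-T9, H2-M2 and H2-M5) were not analysed here. Class I-like molecules, which share the fold but do not present peptides to CD8+ T cells, were listed for 5 of 6 genes. They ran from Mr1, which presents vitamin B metabolites, at 9.08 per kilobase to Azgp1, a secreted molecule that needs no B2m, at 5385. Between these lay Fcgrt, the neonatal Fc receptor, at 855, and Cd1d1, which presents lipids, at 676.

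Genes of peptide loading and trimming were all listed (8 of 8) and all lay above the median gene, from Tapbpl at 79.2 to the chaperone Hspa5 at 3230 per kilobase. The chaperones that fold class I, calreticulin (Calr, 2395), calnexin (Canx, 1329) and Pdia3 (1369), stood well above Tapbp, and they also fold many other proteins. Erap1, which trims peptides to the length that class I binds, stood at 199.

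Proteasome genes were listed for 9 of 9, from Psmb9 at 23.6 to Psmb6 at 437 per kilobase, with 8 above the median gene. Psmb8, Psmb9 and Psmb10 encode the catalytic subunits of the immunoproteasome, which replace Psmb5, Psmb6 and Psmb7 after interferon. The standard subunit stood above its replacement for Psmb6 against Psmb9, by 18.6 times per kilobase of exon and 8.74 times per kilobase of coding sequence, and for Psmb7 against Psmb10, by 2.21 and 4.38 times. For Psmb5 against Psmb8 the direction changed with the length used, with a ratio of 1.91 by exon and 0.531 by coding sequence. Of the 50-base windows of Psmb5, 45.9% occurred in no other gene, against 88.1% for Psmb8, so reads of Psmb5 may be undercounted. The effect on this ratio was not tested. Psmb9 lies beside Tap1 on the opposite strand and shares 163 windows with it, and by exon length both were the lowest of their lists.

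Transcription factors of class I genes were listed for 16 of 16, from Irf8 at 19.2 to Rela, a subunit of NF-kB, at 183 per kilobase, with a median of 42.3 and 6 above the median gene. Nlrc5, at 61.4, lay above the median of that list. Its DNA-binding partner Rfx5 stood at 27.1, and the interferon regulatory factor Irf1 stood at 78.7.

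**Figure D5:**
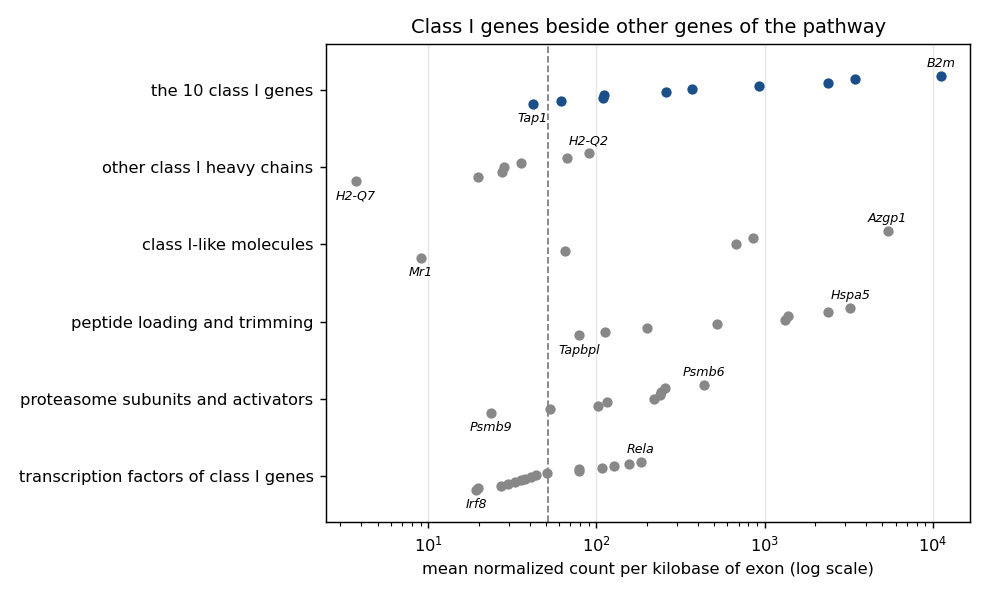
Mean normalized count per kilobase of exon (log scale) of the 10 class I genes (blue) and of the listed genes of 5 related lists (grey), with a point for each gene, the lowest and highest of each list named, and a dashed line at the median of all genes (51.5). The 10 genes span from Tap1 at 41.9 to B2m at 11199.8, while the other heavy chains lie between 3.70 and 89.7.

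Marker genes were read beside these levels, because class I is made by nearly every cell type of the liver. All 8 hepatocyte markers were listed, from Hnf4a at 2550.1 to albumin at 519843 per kilobase. All 9 Kupffer cell and macrophage markers (55.4 to 791), all 7 markers of sinusoidal endothelium (41.4 to 289) and all 6 of stellate cells (13.8 to 265) were listed too. Of the markers of other cells, 2 of 5 for cholangiocytes, 1 of 6 for T and NK cells, 0 of 4 for B cells, 1 of 4 for dendritic cells and 2 of 4 for neutrophils were listed, at most at 91.9 per kilobase. The levels of B2m, H2-D1, H2-K1 and H2-Q10 exceeded that of each listed marker outside the hepatocyte list, and H2-Q4 lay within the range of the Kupffer cell markers. By exon length, Tapbp, H2-T23, Tap2 and Nlrc5 lay within the ranges of the Kupffer cell, endothelial and stellate markers. Tap1, at 41.9, lay within the stellate range and just above the lowest endothelial marker. Nlrc5 and Tap1 also lay between the listed cholangiocyte markers, Sox9 at 9.94 and Spp1 at 91.9. The part of each cell type in these levels was not tested.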

How the data were processed

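RNA from 6 Balb/c livers, 3 given Luc ASO and 3 given LL35 ASO, was sequenced by the authors after rRNA depletion with a directional kit in single-read mode; 7 AML12 libraries were not analysed here. Per the labels and methods, the authors aligned reads with STAR 2.5.3a, counted them on Ensembl genes in its GeneCounts mode and normalized the counts with DESeq2. The genome build, the strand setting and the reads per library are not given in the sources used here, and the read length could not be taken from the methods, so depth and its precision are unknown. The authors' deposited table holds 1 signal per gene, the normalized count averaged over the compared livers of both groups. It has 0 columns for single livers. Its 5 further columns of numbers hold the authors' own comparison (a log2 fold change, its standard error, a Wald statistic, a p-value and an adjusted p-value) and were not used, so no test, no difference between groups and no leave-one-out value was computed.

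Levels per kilobase were computed by dividing by the union of annotated exons in GENCODE release M21 (GRCm38), matched by Ensembl identifier for 11754 of 11779 genes. The longest transcript, the coding length and the exon positions with their own windows were alternatives. A window was its gene's own when its 50 bases, read on both strands, occurred in the annotated transcripts of no other gene. Windows of 36, 75 and 100 bases were alternatives. The window counting was tested on simulated data, where 400 of 400 genes were recovered within 6 windows. Promoters (250 bases before to 50 after the start) came from RefSeq, GRCm38.p6. The genes and gene lists were chosen with earlier results of these data known. All 10 genes are named, with the highest and lowest gene of each list; other genes were named after their values were seen. The software was Python 3.11.15, Biopython 1.88, matplotlib 3.10.9, pandas 2.3.3 and numpy 2.4.6.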

Additional observations from a re-analysis of the deposited data

How the results depend on the processing

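The authors' table gives 1 mean per gene, so these values carry no error from mice, and depth, which limits the low genes most, is unknown. No paired analysis was possible because the columns carry no replicate, and leaving out a mouse was not possible for the same reason. Values within 1.5-fold, or within 5 percentage points for shares and ranks, were taken as the same. The median level of the 10 genes per kilobase was 314 by exon length, 346 by longest transcript and 458 by positions with their own windows, but 786 by coding length, which is shorter for every gene. Their median rank, as the share of genes below, was 89.0%; it was 87.0% among genes averaging 50 normalized counts or more, 89.1% among protein-coding genes, 84.7% by coding length and 83.6% by mean normalized count, and the cause of the last shift was not tested. The median share of own windows was 87.8% for 50 bases, 80.3% for 36, 94.3% for 75, 96.6% for 100 and 84.4% within the coding sequence. H2-K1 and H2-D1 together held 77.6% of the heavy chain level by exon length, 72.4% by mean normalized count and 70.7% by coding length. B2m over the summed heavy chains was 1.49 by exon length, 1.32 by coding length and 0.44 by mean normalized count. Ranks by coding length and by mean normalized count, windows within the coding sequence, and the ratios by coding length were chosen after seeing the data. Among single genes, 9 of 10 levels moved with the coding length, 1 with the longest transcript and 1 with the own windows, all upward. Single ranks moved for 4 of 10 genes by coding length, 5 by mean normalized count, 4 among genes averaging 50 normalized counts or more and 0 among protein-coding genes. By coding length, the share of genes below fell from 54.8% to 33.2% for Nlrc5 and from 71.3% to 54.5% for Tap2.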

Other observations

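Other H2 genes outside the lists were listed as well, and their values were looked up after the class I levels were seen. H2-T-ps, an unprocessed pseudogene in GENCODE but protein-coding in the authors' table, stood at 219 normalized counts per kilobase of exon. This was above H2-T23 at 110.1, with which H2-T-ps shares 183 windows. Of the 50-base windows of H2-T-ps, 70.6% were found in no other gene. H2-K2, typed as a pseudogene by the authors, stood at 71.4, and H2-Bl, a polymorphic pseudogene in GENCODE, at 39.3 per kilobase. The class II genes H2-Aa and H2-Ab1, which present peptides from outside the cell, stood at 113 and 97.1 per kilobase, and H2-DMa, which helps to load them, stood at 12.1.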
